A study of Mus musculus with 9 samples.

Results

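Spheres grown from dorsal root ganglia (DRG) were set against spheres grown from spinal cord in the same medium. The arrays were taken by their titles, 3 labelled rNCSC for the DRG spheres and 3 labelled SCSC for the spinal cord spheres, which makes 6 of the 9 arrays of the series. Both kinds came from C57BL/6J mouse embryos at embryonic day 12.5 and were measured as passage 3 neurospheres, free-floating colonies of dividing cells. The shared serum-free medium held 20 ng/ml bFGF, 20 ng/ml EGF and 0.5 U/ml heparin, and neither group received BMP4. The other 3 arrays, labelled BMP NCSC, came from DRG spheres grown with 10 ng/ml BMP4 added to that medium. They entered the fit for its estimate of spread, and their levels are given beside some genes, on arrays that serve both comparisons. No label states the origin of the replicate arrays (embryo, litter or culture). The p-values thus refer to the spread between these arrays alone, and that spread may be technical. Genes on the X and Y chromosomes were left out, and 9930 autosomal genes were tested.

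DRG form from the neural crest, cells that leave the dorsal neural tube and give rise to sensory neurons, Schwann cells and, elsewhere in the embryo, melanocytes and mesenchyme. The transcription factors Sox10, Tfap2a, Foxd3 and Snai2 are known markers of crest cells. The embryonic spinal cord holds progenitors that line the central canal and express Sox2, Fabp7 and nestin, and their position along the dorsal to ventral axis is marked by factors such as Pax6, Olig2 and Nkx2-2. The labels describe the rNCSC as DRG cells that took on a central nervous system (CNS) character in this medium. The comparison therefore addresses what still separates spheres of peripheral origin from spheres of central origin.

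Values are GCRMA levels on the log2 scale, where a difference of 1 is a doubling, and levels near 3 lie at the array's floor. Differences are rNCSC minus SCSC throughout. The 9 arrays were alike in their medians, between 3.98 and 4.03, and 38.7% to 39.9% of probe sets reached a level of 5. In whole spheres, fewer cells of a type and less RNA in each cell cannot be told apart.

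Apart from Cdh19 and Nes, the crest and CNS markers given here did not separate the spheres by tissue of origin. The arrays of Cdh19 and Nes, described below, did not overlap, with differences of 1.40 and -0.62. Sox10 lay at 4.24, 3.95 and 4.24 in rNCSC and at 3.97, 3.95 and 4.22 in SCSC, against a BMP NCSC mean of 11.56. Erbb3, the neuregulin receptor of crest and glia, had means of 3.08 in rNCSC, 3.17 in SCSC and 11.81 in BMP NCSC. Snai2 was between 2.78 and 3.03 on the 6 arrays and averaged 11.42 in BMP NCSC. These crest genes were thus at the floor in both groups, and the DRG label was not borne out by its defining markers. Foxd3 and the sensory neuron genes Isl1, Pou4f1 and Prph stayed below 5 on all 6 arrays and were not tested. The CNS genes were high in both groups. Olig2 lay between 12.03 and 12.22 on the 6 arrays, Sox2 between 12.77 and 13.02 and Fabp7 between 14.39 and 14.47. Their differences were -0.04, -0.04 and -0.01, and all 3 became slightly positive when the arrays were centred on their medians.

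The rNCSC arrays were less alike than the SCSC arrays, and this shapes every comparison that follows. Between 2 SCSC arrays, 43 to 58 autosomal genes differed by 1 or more. Between 2 rNCSC arrays the count was 256 for arrays 1 and 2, 529 for arrays 1 and 3, and 632 for arrays 2 and 3. The array rNCSC 2 differed by 1 or more from the 3 SCSC arrays in 153, 90 and 156 genes, fewer than from either of the other rNCSC arrays. The array rNCSC 3 stood farthest away, with 613 to 648 such genes against the SCSC arrays and 342 genes set 1 or more apart from both other rNCSC arrays. For rNCSC 1 and rNCSC 2 that last count was 65 and 146, and for the SCSC arrays it was 13, 22 and 4. The SD over 3 arrays exceeded 1 for 250 genes in rNCSC and 15 in SCSC, and its median was 0.166 against 0.124.

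**Figure D1:**
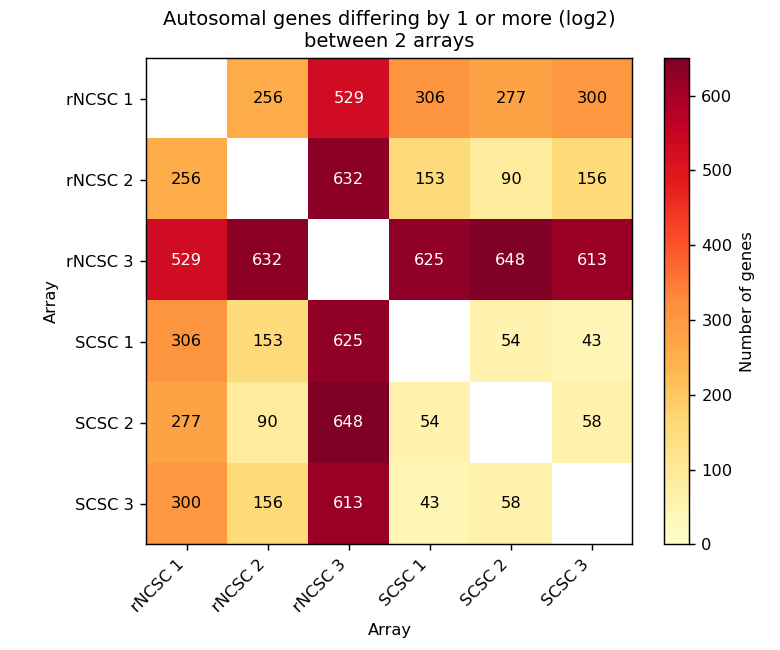
Number of the 9930 autosomal genes that differ by 1 or more on the log2 scale between each pair of arrays; both axes list the 6 arrays and the colour gives the count. The SCSC arrays differ from each other in 43 to 58 genes, rNCSC 2 differs from the SCSC arrays in 90 to 156, and rNCSC 3 differs from every other array in 529 to 648.

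Few differences between the groups stood out from this spread. With limma, 0 genes (0%) were called higher in rNCSC and 1 gene (0.0101%), Efcab7, was called lower, at an adjusted p under 0.05 and a difference of at least 1. At an unadjusted p under 0.05, 376 genes (3.79%) were higher and 988 (9.95%) lower. A difference of at least 1 was seen in 79 genes (0.796%) on the higher side and 70 (0.705%) on the lower side. Of these 149 genes, 72 had all 3 arrays of one group above all 3 of the other, 77 had arrays that overlapped, and 92 had an SD over 1 in rNCSC. A difference of 1 or more held without any one of the 6 arrays for 43 genes, 23 of them higher in rNCSC and 20 lower. Without rNCSC 2 the genes that differed by 1 or more numbered 148 higher and 145 lower, and without rNCSC 3 they numbered 49 and 38. The 95% interval of the difference lay wholly within -1 and 1 for 8832 genes, 88.9% of those tested.

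Small differences were often repeated over the arrays. The arrays did not overlap for 545 genes higher in rNCSC (5.49%) and 1510 lower (15.2%), with a median absolute difference of 0.31. The larger number on the lower side depended on the scaling. The higher side made up 26.5% of these genes as deposited, 33.1% after a second quantile normalization and 44.3% after centring each array on its median. After that centring, 8.57% of all genes were higher and 10.8% lower without overlap. Genes that both failed to overlap and differed by 1 or more were evenly divided, with 37 higher (0.373%) and 35 lower (0.352%). In 9 genes a gap of at least 1 separated the nearest arrays of the groups, and these are named after their values were seen. They were Casp12, Apoe, A330076H08Rik, Cryab, Ifi27 and Cacna2d1 on the higher side, and Bcas1, Nexn and Efcab7 on the lower side.

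**Figure D2:**
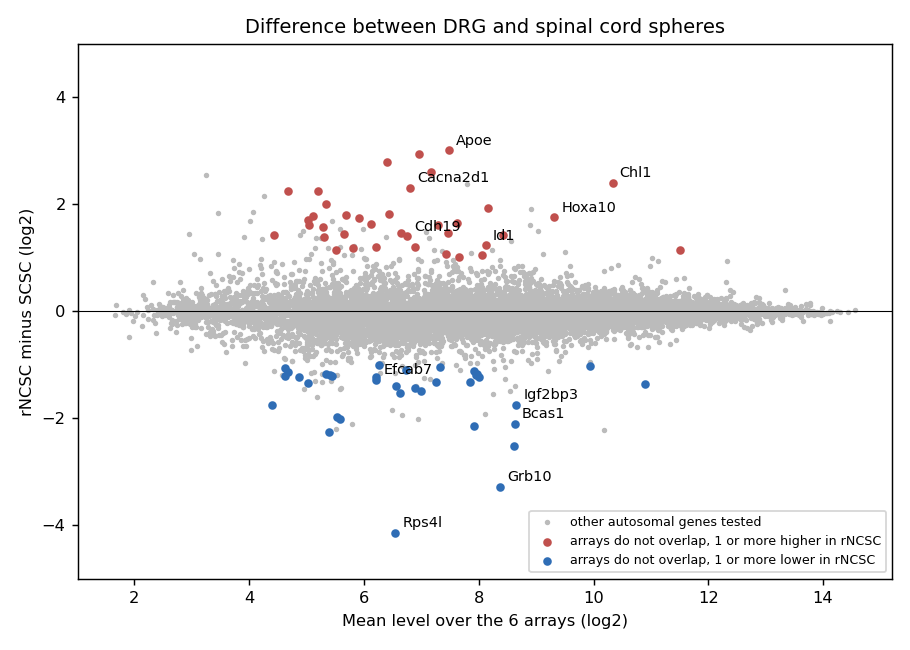
Mean level over the 6 arrays (x axis, log2) against rNCSC minus SCSC (y axis, log2) for each autosomal gene tested. The 37 red and 35 blue genes differ by 1 or more with arrays that do not overlap, higher and lower in rNCSC, and grey points are all other genes tested. Most genes lie close to 0, and Apoe and Rps4l reach 3.01 and -4.14.

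Efcab7, which encodes an EF-hand protein that anchors the Evc and Evc2 complex at the base of the primary cilium in Hedgehog signalling, was the gene called. Its level was 5.39, 5.68 and 5.67 in rNCSC and 6.93, 6.78 and 6.86 in SCSC. All 3 rNCSC arrays lay more than 1 below all 3 SCSC arrays, and neither group had an array apart. The difference was -1.28 with a standard error of 0.11, or 2.42-fold lower in rNCSC, at an adjusted p of 0.0204 by limma. Over the alternatives its adjusted p ran from 0.00649 to 0.217 and the difference stayed between -1.33 and -1.18 without any one array. The call was lost without SCSC 1 (adjusted p 0.117), SCSC 2 (0.138), SCSC 3 (0.217) or BMP NCSC 2 (0.0858), with the 6 arrays alone (0.128) and with the replicate block (0.144). BMP NCSC, also grown from DRG, averaged 7.40, so the low level was not common to both kinds of DRG sphere.

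Of 32 tested members of a primary cilium list, the arrays of 7 did not overlap on the lower side and of 1 on the higher side, with a median difference of -0.16. That is 7 of 32, Efcab7 among them, beside 15.2% of all genes on the lower side. After centring the arrays on their medians, 7 were again lower without overlap, beside 10.8% of all genes. Whether the list departs from the background was not tested. Evc2, a partner of Efcab7 in the complex, lay at 5.20, 5.87 and 5.52 in rNCSC and 6.34, 6.23 and 5.97 in SCSC, a difference of -0.65 (standard error 0.18, adjusted p 0.219). The arrays of Evc2 did not overlap. Evc differed by -0.36 and the transport protein gene Ift52 by -0.20, both without overlap. Iqce, whose protein binds Efcab7, differed by -0.28 with arrays that overlapped. The hedgehog receptor gene Ptch1 differed by -0.17, Smo by -0.06 and the repressor Sufu by -0.18. Mycn, a Myc family gene and hedgehog target among the 11 tested hedgehog genes, differed by -1.14 with arrays that overlapped.

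The Id genes, which encode inhibitors of basic helix-loop-helix factors and are direct targets of BMP signalling, were all on the higher side in rNCSC. Id1 was at 9.38, 8.61 and 8.24 in rNCSC and 7.43, 7.66 and 7.42 in SCSC. Its 3 rNCSC arrays lay above every SCSC array, although rNCSC 1 was the highest by a margin. The difference was 1.24 (standard error 0.25), or 2.36-fold, with an adjusted p of 0.161. Id3 was at 11.38, 11.56 and 11.87 against 10.88, 10.48 and 10.62, which again gave no overlap and a difference of 0.94 (standard error 0.15, adjusted p 0.134). Id4 was at 4.50, 4.27 and 5.31 against 3.97, 3.77 and 3.39, a difference of 0.98 between groups that both sat near the floor, and the further Id4 probe sets gave 1.11 without overlap and 0.21 with it. Id2 differed by 0.31 without overlap. None of the 4 Id genes passed the adjusted test.

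Beside the Id genes, members of the BMP list differed in both directions. Of its 21 tested members, 6 were higher without overlap (5.49% of all genes) and 2 lower (15.2%), with a median of 0.09. However, 8 of the 21, Id4 among them, did not reach 5 on at least 3 of the 6 arrays and passed the filter through BMP NCSC. The count and median over the list therefore say nothing of a difference. The other 2 on the higher side were Smad5, a signal transducer of BMP receptors, at 0.34, and the receptor gene Bmpr2 at 0.15. The 2 on the lower side were inhibitors or modulators of the pathway. Bambi, a decoy receptor, was at 6.05, 6.69 and 6.52 in rNCSC and 7.40, 7.10 and 6.81 in SCSC, a difference of -0.69. Bmper, a secreted BMP binding protein, differed by -1.43 with rNCSC 3 lowest at 4.76, and by -0.73 without that array. Smad6 and Atoh8, other BMP targets, lay between 2.65 and 3.70 on the 6 arrays. With BMP4 in the medium, the BMP NCSC means were 11.94 for Id1, 13.08 for Id3, 11.49 for Id4, 12.47 for Bambi, 12.27 for Bmper and 10.42 for Smad6. For Id1 and Id3 the rNCSC mean was therefore between those of SCSC and BMP NCSC, while Bambi and Bmper were lower in rNCSC than in both.

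**Figure D3:**
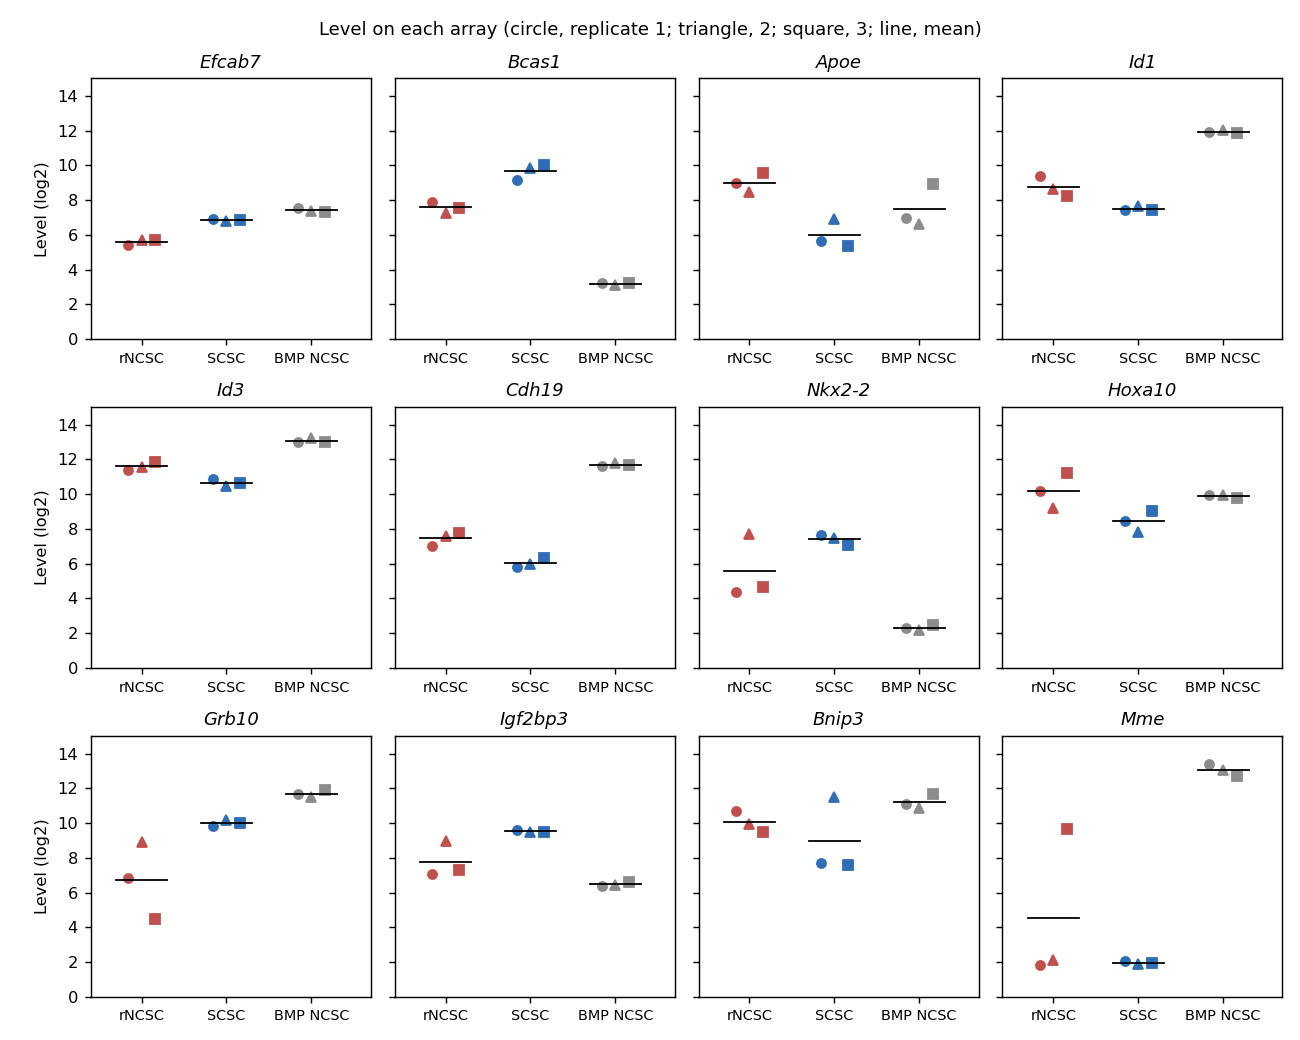
Level of 12 genes (y axis, log2) on each of the 9 arrays, by group on the x axis, with replicate 1 as a circle, 2 as a triangle, 3 as a square and the group mean as a line. Efcab7, Bcas1, Apoe, Id1, Id3, Cdh19 and Hoxa10 do not overlap between rNCSC and SCSC, Nkx2-2, Igf2bp3 and Grb10 have rNCSC 2 nearest to SCSC, Bnip3 is highest in SCSC 2, and Mme is high in rNCSC 3 and BMP NCSC.

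Factors that mark position in the spinal cord split by array. Nkx2-2, which specifies the most ventral neuronal progenitors and later oligodendrocyte precursors, was at 4.35, 7.69 and 4.65 in rNCSC and 7.63, 7.50 and 7.06 in SCSC. The array rNCSC 2 was above all 3 SCSC arrays, and rNCSC 1 and 3 were well below them. The difference of -1.83 (standard error 0.75, adjusted p 0.336) became -2.90 without rNCSC 2. Dbx2, a factor of intermediate progenitors, followed the same order with 3.85, 6.58 and 3.43 against 5.57, 6.31 and 5.93. Zic2, a dorsal factor, had the opposite order with 6.61, 5.58 and 6.79 against 5.86, 5.77 and 5.41. Over 15 tested CNS progenitor factors the median difference was -0.05, and Olig1, Olig2, Sox1, Sox2 and Pax6 each differed by 0.10 or less in size. Nes, the gene of the intermediate filament nestin, was lower without overlap at 10.48, 10.46 and 10.09 against 11.11, 10.94 and 10.85 (difference -0.62, adjusted p 0.201). Further Nes probe sets gave -0.15 and -0.35 with overlap. Prom1, which encodes a membrane protein of neural progenitors, differed by -1.05 with arrays that overlapped. The proliferation marker Mki67 was between 12.59 and 12.66 on all 6 arrays.

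Of 18 tested crest genes, 8 did not reach 5 on at least 3 of the 6 arrays and passed the filter through BMP NCSC, so a count over the list says nothing of a difference. Pax3, a factor of the dorsal neural tube and early crest, was at 6.87, 6.92 and 5.28 in rNCSC and 6.98, 7.31 and 7.04 in SCSC, a difference of -0.75 without overlap. The crest factor genes Tfap2a and Tfap2b were raised on a single array, rNCSC 2, to 5.18 and 6.14, while the other 5 arrays lay between 3.37 and 3.69 for Tfap2a and between 2.28 and 2.64 for Tfap2b. Tfap2b was picked after its values were seen. The BMP NCSC means were 10.99 and 10.39. Thus the rNCSC array nearest to SCSC over all genes was also the 1 array with a level of these factors above the floor. The crest mesenchyme factor Twist1 was instead raised in rNCSC 3 alone, to 5.48.

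Cdh19, a cadherin gene of Schwann cell precursors, was the peripheral glia gene with the most regular difference. It was at 7.03, 7.60 and 7.74 in rNCSC and 5.82, 5.99 and 6.35 in SCSC, with a BMP NCSC mean of 11.70. The groups did not overlap and both lay well above the floor. The difference was 1.40 (standard error 0.20), or 2.64-fold, with an adjusted p of 0.101, and stayed between 1.26 and 1.62 without any one array. S100b, a calcium-binding protein gene of glia, differed by 1.71, but its 7.95 in rNCSC 3 stood far above the 5.02 and 4.69 of the other rNCSC arrays. Gap43, a growth cone protein gene, was lower by 1.36 with rNCSC 3 lowest at 8.71. Mitf, the master factor of melanocytes, was at 6.38, 6.37 and 6.79 against 5.55, 5.71 and 5.32, a difference of 0.99 (standard error 0.22, adjusted p 0.186) without overlap. Among sensory neuron genes Gfra1, a GDNF co-receptor gene, differed by 0.96 with arrays that touched, at 7.22 in rNCSC 1 and 7.30 in SCSC 2.

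Among the tested oligodendrocyte genes the largest difference was that of Bcas1, lower in rNCSC. Neither this list nor that of astrocytes had all its members in the same direction. Bcas1, which is expressed in oligodendrocytes that are forming myelin, was at 7.89, 7.26 and 7.57 in rNCSC and 9.14, 9.86 and 10.03 in SCSC. The arrays of the groups were at least 1.25 apart. The difference was -2.10 (standard error 0.24), or 4.30-fold lower in rNCSC, with an adjusted p of 0.0755. Without any one array it lay between -2.37 and -1.93, and the BMP NCSC mean was 3.19. The rest of the 12 tested oligodendrocyte genes had no common direction, with a median of -0.03. Cnp, a myelin enzyme gene, was higher by 0.29 without overlap, while its further probe sets gave 0.11 and 0.10 with overlap. Omg, a myelin glycoprotein gene, was at 5.36, 7.80 and 5.16 against 6.66, 7.30 and 6.88, the order seen for Nkx2-2.

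Apoe, the gene of a lipid carrier secreted by astrocytes and radial glia, had the largest difference on the higher side among genes without overlap. Its level was 8.96, 8.45 and 9.55 in rNCSC and 5.66, 6.90 and 5.37 in SCSC. The lowest rNCSC array was 1.55 above the highest SCSC array. The difference was 3.01 (standard error 0.63), or 8.06-fold, with an adjusted p of 0.169, and the BMP NCSC arrays averaged 7.50. Of 15 tested astrocyte genes, 6 were higher without overlap (5.49% of all genes) and 0 lower (15.2%), with a median difference of 0.29 where all genes had -0.05. Besides Apoe they were Id3, S100b, the glutamate transporter gene Slc1a3 at 0.41 and the glial fate factors Nfia and Nfix. Of the 15 members, 2, S100b among them, did not reach 5 on at least 3 of the 6 arrays and passed the filter through BMP NCSC. Id3 is counted in the BMP list as well. Nfia was at 9.86, 9.93 and 9.86 against 9.60, 9.60 and 9.53, a small but even difference of 0.31, and Nfix differed by 0.28. Of the 3 further Nfia probe sets, 1 did not overlap, at 0.36, and the 3 further Nfix probe sets, at 0.20, 0.11 and 0.08, all overlapped. Not all members shared the direction. Aldh1l1, a folate enzyme gene that marks astrocytes, differed by -1.16 with overlap, and Gfap, the astrocyte filament gene, lay below 4 on all 6 arrays. Abca1, which encodes a pump that loads lipid onto apolipoprotein E, was at 8.43, 7.55 and 9.43 against 4.86, 6.81 and 5.95, a difference of 2.60.

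**Figure D4:**
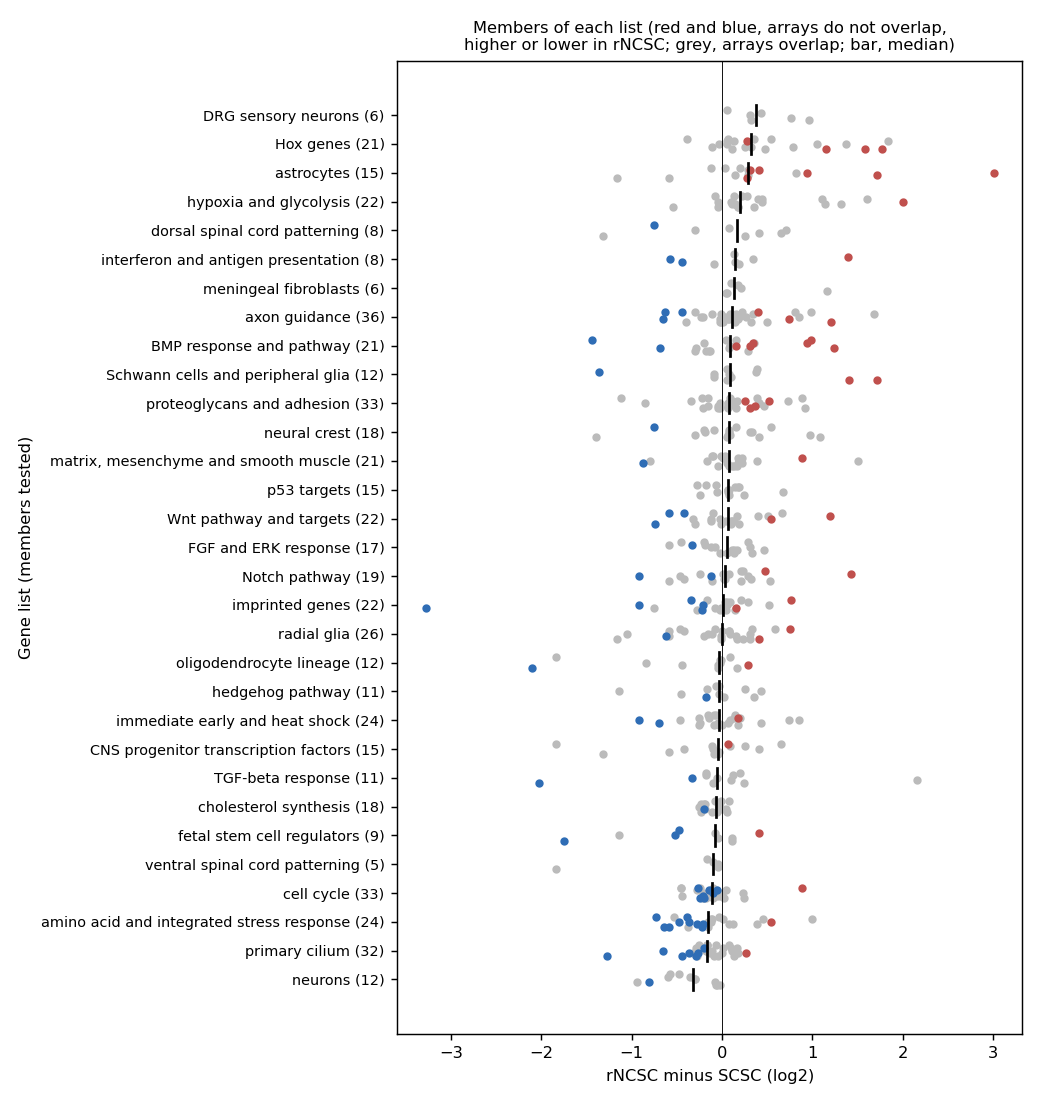
rNCSC minus SCSC (x axis, log2) for each tested member of the gene lists with at least 5 tested members (y axis, number tested in brackets), ordered by the median, which is a black bar. Red and blue members have arrays that do not overlap, higher and lower in rNCSC, and grey members overlap. List medians lie between -0.33 (neurons) and 0.38 (DRG sensory neurons), against -0.05 for all genes. Some members did not reach 5 on at least 3 of the 6 arrays, so the medians are descriptive only. They were 2 of 6 DRG sensory neuron, 3 of 12 neuronal and 14 of 21 matrix genes, with others in further lists.

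Among 21 tested Hox genes, which encode position along the body axis, 4 were higher without overlap (5.49% of all genes) and 0 lower (15.2%), with a median of 0.32. That median was 0.17 without rNCSC 3 and 0.55 without rNCSC 2. Hoxa10 was at 10.17, 9.20 and 11.23 against 8.44, 7.82 and 9.05, and Hoxa9 at 12.73, 11.15 and 12.33 against 11.10, 10.66 and 11.02. For both genes the lowest rNCSC array was rNCSC 2, a little above the highest SCSC array. The differences were 1.77 and 1.15, with adjusted p values of 0.211 and 0.244. A further Hoxa9 probe set gave 1.34 with overlap. Hoxd10 and Hoxc10 stood out in rNCSC 3 alone, at 8.55 and 9.47. Without that array their differences turned from 1.84 and 1.37 to -0.24 and -0.40.

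Grb10 and Igf2bp3 were lower in rNCSC without overlap, unevenly over its arrays. Grb10, an imprinted gene whose product restrains insulin and IGF signalling, was at 6.84, 8.91 and 4.46 in rNCSC and 9.85, 10.20 and 9.99 in SCSC. The SCSC arrays agreed closely, and the rNCSC arrays were spread over more than 4 units below them. The difference of -3.28 (standard error 0.90, adjusted p 0.215) ranged from -4.36 to -2.14 when 1 array was left out. A further Grb10 probe set was also lower without overlap, but by 0.52, at levels between 3.38 and 4.21 near the floor. Igf2bp3, an RNA-binding protein gene of fetal tissue, was at 7.06, 8.98 and 7.30 against 9.61, 9.46 and 9.50, a difference of -1.75 (standard error 0.43, adjusted p 0.201). Hmga2, a chromatin gene of fetal stem cells, was at 10.78, 10.92 and 10.90 against 11.51, 11.21 and 11.29, a difference of -0.47. Further Hmga2 probe sets gave -0.48 without overlap, and -0.29 and 0.61 with it. The DNA methyltransferase gene Dnmt3b differed by -0.52, and Tet1, whose enzyme oxidises methylated cytosine, by 0.40, both without overlap. Further Tet1 probe sets gave 0.23 and 0.63 with overlap. Of the 9 tested fetal stem cell regulators, which include Igf2bp3, Hmga2, Dnmt3b and Tet1, 3 were lower without overlap (15.2% of all genes) and 1 higher (5.49%), with a median of -0.08. Of 22 tested imprinted genes, 2 were higher (5.49% of all genes) and 5 lower (15.2%) without overlap, shares not far from the background, with a median of 0.01. Plagl1, an imprinted zinc finger gene, differed by -0.92 and Ndn, the gene of necdin, by -0.34.

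The greatest difference of all belonged to Rps4l, a gene that resembles a ribosomal protein gene. It was at 2.96, 7.50 and 2.97 in rNCSC and 8.44, 8.62 and 8.78 in SCSC. On rNCSC 1 and 3 it was at the floor, and on rNCSC 2 it was close to SCSC. The difference of -4.14 (standard error 1.09, adjusted p 0.205) was -5.65 without rNCSC 2, and BMP NCSC averaged 6.83. Such a probe set may also bind the transcripts of near-identical ribosomal genes.

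A mixed list of amino acid and integrated stress response genes leaned to the lower side. Of 24 tested members of the amino acid and integrated stress response list, 9 were lower without overlap (15.2% of all genes) and 1 higher (5.49%), with a median of -0.15. After centring the arrays on their medians, 6 were lower (10.8% of all genes) and 1 higher. Slc7a1, a carrier of arginine and lysine, was at 8.71, 8.97 and 9.29 against 9.93, 9.62 and 9.61, a difference of -0.73 (standard error 0.16, adjusted p 0.173). Asns, the asparagine synthetase gene and a target of the stress factor Atf4, was at 10.81, 10.98 and 10.71 against 11.14, 11.31 and 11.48. The arrays of Asns did not overlap and the difference was -0.48 (standard error 0.12, adjusted p 0.201). A further Asns probe set gave -0.63, again without overlap. Slc7a5, a carrier of large neutral amino acids, differed by -0.59, Chac1, a glutathione-degrading enzyme gene, by -0.64 and Gars, the glycyl-tRNA synthetase gene, by -0.39. The direction was not shared by all, since Ddit3, a stress factor gene, was higher by 0.55 and Ddit4, an mTOR inhibitor gene, by 0.99. Atf4 itself differed by -0.12.

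The promoter of Asns is shown because its element for Atf4 lies within the window. The sequence is from RefSeq, assembly GRCm38.p6, chr6:7693160-7693459 on the minus strand, 250 bases before to 50 after the start, and the capitals mark the match to TGATGNAA.
Asns: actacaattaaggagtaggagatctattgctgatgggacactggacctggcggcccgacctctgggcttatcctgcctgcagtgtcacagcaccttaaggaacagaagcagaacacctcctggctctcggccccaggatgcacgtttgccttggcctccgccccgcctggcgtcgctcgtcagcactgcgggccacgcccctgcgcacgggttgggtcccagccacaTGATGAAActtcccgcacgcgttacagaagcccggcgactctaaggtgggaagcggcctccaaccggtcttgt
The match begins 23 bases before the start. TGATGNAA, searched on both strands, was found in 3.97% of 32851 promoters of this length and in 8 of the 22 list members with a promoter in the table. Of these, Asns, Aars, Chac1, Gars and Trib3 were lower without overlap and Pck2 was lower with overlap. Nupr1 and Vldlr were higher in rNCSC, by 0.39 and 0.46 with overlap. A match is a string of letters and shows no binding.

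The comparison of hypoxia and glycolysis genes depended on single arrays of both groups. Within rNCSC, rNCSC 1 was highest in 18 of the 22 tested members and rNCSC 3 was lowest in 18. The mean level of 22 tested members was 9.59, 9.07 and 8.48 on the rNCSC arrays and 8.14, 9.48 and 8.21 on the SCSC arrays, so SCSC 2 stood above SCSC 1 and 3. Bnip3, a mitophagy gene and target of the hypoxia-inducible factor, was at 10.67, 9.98 and 9.49 in rNCSC and 7.73, 11.52 and 7.58 in SCSC. Its SCSC 2 level was above all rNCSC arrays and the other SCSC levels were below them. Pdk1, which encodes a kinase that turns pyruvate away from respiration, was at 10.56, 9.22 and 9.31 against 6.64, 10.54 and 7.09. P4ha1, a collagen prolyl hydroxylase gene, was at 9.78, 9.05 and 8.81 against 7.26, 9.11 and 7.33, and Vegfa at 8.71, 7.58 and 7.47 against 6.09, 7.93 and 6.34. In these 4 genes SCSC 2 lay within or above the range of rNCSC, and SCSC 1 and 3 lay below it. Ankrd37, a small ankyrin repeat gene and hypoxia target, was the 1 member without overlap, at 7.77, 5.77 and 5.48 against 3.88, 5.02 and 4.10, a difference of 2.01 (standard error 0.58, adjusted p 0.233).

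With all arrays, 1 of the 22 hypoxia genes was higher without overlap (5.49% of all genes) and 0 lower (15.2%), with a median difference of 0.20. Without SCSC 2, an array singled out after its values were seen, 16 of 22 were higher without overlap, where 8.82% of all genes were, and 0 were lower (19.4%). At an unadjusted p under 0.05 the counts without SCSC 2 were 10 higher (3% of all genes) and 0 lower (7.02%), and the median difference was 0.58. None of the members was called in that fit. Without rNCSC 3 the median was 0.55 and 3 members were higher without overlap, beside 876 of all 9930 genes. Without rNCSC 1 the median was 0.06 and 1 member was higher without overlap, beside 904 of all genes. In both cases 0 members were lower without overlap, beside 2399 and 1844 of all genes. Oxygen in the cultures, sphere size and density are not given in the labels.

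The promoters of Bnip3 and Ankrd37 are shown because both hold the core of the element bound by the hypoxia-inducible factor. They are from RefSeq, assembly GRCm38.p6, chr7:138909457-138909756 and chr8:45999801-46000100, both on the minus strand, and the capitals mark matches to ACGTG on either strand.
Bnip3: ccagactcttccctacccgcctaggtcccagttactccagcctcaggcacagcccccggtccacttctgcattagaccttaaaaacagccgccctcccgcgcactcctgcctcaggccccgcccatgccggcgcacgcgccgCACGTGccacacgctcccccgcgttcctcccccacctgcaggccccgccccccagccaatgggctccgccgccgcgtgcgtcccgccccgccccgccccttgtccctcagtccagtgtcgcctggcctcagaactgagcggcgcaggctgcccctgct
Ankrd37: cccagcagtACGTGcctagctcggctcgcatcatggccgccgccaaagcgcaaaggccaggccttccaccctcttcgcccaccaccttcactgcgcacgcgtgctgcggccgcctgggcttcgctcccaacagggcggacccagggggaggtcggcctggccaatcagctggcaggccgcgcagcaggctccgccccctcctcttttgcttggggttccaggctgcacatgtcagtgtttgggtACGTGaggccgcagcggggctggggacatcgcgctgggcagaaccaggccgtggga
In Bnip3 the matches on the opposite strands overlap, with first bases 108 and 107 before the start. In Ankrd37 they begin 241 and 6 bases before it. ACGTG was found in 19.6% of 32851 promoters and in 15 of the 20 list members with a promoter in the table, so the letters alone are common.

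Of 36 tested axon guidance genes, 3 were higher without overlap (5.49% of all genes) and 3 lower (15.2%), with a median of 0.11. Outside that list, Cacna2d1, a calcium channel subunit gene, was at 7.71, 7.37 and 8.79 in rNCSC and 6.21, 5.56 and 5.17 in SCSC. The nearest arrays were 1.16 apart and both further probe sets of Cacna2d1 were also higher without overlap. The difference was 2.31 (standard error 0.39), or 4.96-fold, with an adjusted p of 0.139. Chl1, a neural cell adhesion gene, was at 11.33, 10.76 and 12.52 against 7.67, 9.65 and 10.07, a difference of 2.41, with SCSC 1 far below SCSC 2 and 3. Robo1, a Slit receptor gene, differed by 0.75, and the syndecan gene Sdc2 by 0.52 with a standard error of 0.11, both without overlap. Sema5b and Ephb1, guidance ligand and receptor genes, were lower without overlap by 0.63 and 0.66.

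In the Wnt list, Fzd9, a receptor gene, was at 6.87, 7.36 and 8.27 against 6.25, 6.56 and 6.09, a difference of 1.20. Wnt7a, a ligand gene of spinal cord progenitors, was at 7.00, 7.15 and 6.69 against 7.64, 7.79 and 7.61, a difference of -0.74 with a standard error of 0.13. Neither gene overlapped between groups, and their adjusted p values were 0.205 and 0.144. In the Notch list the target gene Hey2 was at 5.55, 4.66 and 5.26 against 3.54, 3.91 and 3.71, a difference of 1.43 (standard error 0.23, adjusted p 0.134). Mfng, whose enzyme adds sugars to Notch, differed by -0.92, and the receptor Notch2 by 0.48. Ltbp1, a TGF-beta binding matrix gene, was at 4.73, 5.27 and 3.72 against 6.21, 6.34 and 7.23, a difference of -2.02. Among collagens, Col5a1 differed by -0.87 and Col11a1 by 0.88, both without overlap. Further probe sets gave -0.52 with overlap for Col5a1 and 0.59 without it for Col11a1. Of 21 tested matrix, mesenchyme and smooth muscle genes, 14 did not reach 5 on at least 3 of the 6 arrays. Those 14 passed the filter through BMP NCSC, so the list cannot show whether matrix genes had a common direction. Of 24 tested immediate early and heat shock genes, 2 were lower without overlap (15.2% of all genes) and 1 higher (5.49%), with a median of -0.04. The 2 were Fos and Ier2, which differed by -0.92 and -0.70, while Ier3 differed by 0.74 with overlap. Of 33 tested cell cycle genes, 7 were lower without overlap (15.2% of all genes) and 0 of them reached an unadjusted p under 0.05. The 1 member higher without overlap (5.49%) was Cdkn2a, a cell cycle inhibitor gene, at 6.29, 6.25 and 5.16 against 4.92, 5.13 and 5.00, a difference of 0.89 (adjusted p 0.364). After centring the arrays, 4 were lower, a share close to the 10.8% of all genes.

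Some large differences rested on rNCSC 3. Mme, a membrane peptidase gene, was at 1.82, 2.12 and 9.63 in rNCSC, between 1.87 and 2.06 in SCSC and at a mean of 13.05 in BMP NCSC. Tgfbi, a matrix gene induced by TGF-beta, was at 3.94, 3.05 and 9.01 against 3.52, 3.06 and 2.95. Among the 6 rNCSC and SCSC arrays, both were near the floor on all but rNCSC 3, and Tgfbi averaged 9.11 in BMP NCSC. The ceruloplasmin gene Cp, at 7.00, 6.06 and 10.34 against 5.09, 4.91 and 5.04, and Ecrg4, a secreted peptide gene, at 7.71, 6.07 and 11.51 against 5.19, 5.96 and 5.32, did not overlap but were also highest in rNCSC 3. Their differences of 2.79 and 2.94 became 1.52 and 1.40 without it. Sox2ot, the transcript that overlaps Sox2, was low in rNCSC 3 at 3.66 and between 8.74 and 9.29 on the other 5 arrays. Ifitm3, an interferon-induced gene, was instead low in rNCSC 1, at 2.44.

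Most markers of other cell types were too low on the 6 arrays to compare. Of 6 tested meningeal fibroblast markers, 4 did not reach 5 on at least 3 of these arrays and passed the filter through BMP NCSC. The mean level of the 6 genes was between 3.41 and 4.51 on the 6 arrays and between 9.05 and 10.22 in BMP NCSC. The same held for 2 of 4 pericyte markers and for the 1 microglial marker tested, and counts over these lists therefore say nothing of a difference. No erythroid, skeletal muscle or ependymal marker reached the level needed for a test. Of the mesenchyme markers, Dcn and Lum lay between 2.42 and 3.05 on the 6 arrays, at the floor. Of 12 tested neuronal genes, 1 was lower without overlap (15.2% of all genes), Nefm, and the median was -0.33. Tubb3, a neuronal tubulin gene, was at 4.57, 6.47 and 4.88 against 6.34, 6.43 and 5.95. Again rNCSC 2 was at the SCSC level, and rNCSC 1 and 3 were below it. Without rNCSC 2, 6 of the 12 neuronal genes were lower without overlap, where 25.5% of all genes were.

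Leaving out rNCSC 2 gave many more calls than leaving out any other array. With rNCSC 1 and 3 against SCSC, 17 genes (0.171%) were called higher and 48 (0.483%) lower, while each other omission gave at most 1 higher and 2 lower. A fit without rNCSC 2 favours genes in which that array departs from rNCSC 1 and 3. Its place in the genes called there thus describes in part their choice and is no separate result. The array was closer to the SCSC mean than to that of rNCSC 1 and 3 in 53 of the 65 genes. Bcas1 and Ikzf2 were among those in which it was not. Genes called lower there included Rps4l, Grb10, Nkx2-2, Dbx2, Omg and Igf2bp3. They also included P2rx7, an ATP-gated channel gene, at 3.98, 6.11 and 3.53 against 6.35, 6.75 and 6.43, and the cell cycle inhibitor gene Cdkn1c, at 5.41, 8.74 and 5.65 against 7.22, 7.99 and 6.85. For P2rx7 the array rNCSC 2 was nearly at the SCSC level, and for Cdkn1c it was above it. On the higher side were Mlc1, a membrane protein gene of astrocytes, at 10.09, 8.57 and 10.30 against 8.54, 8.76 and 8.44, the Hox genes Hoxa9 and Hoxc9, and Hey2, Zic2, Casp12 and Cryab. The genes in these last sentences were chosen after their values were seen. In 18 of the 65 genes a group mean was under 4, where GCRMA draws levels together and a difference has an uncertain size.

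**Figure D5:**
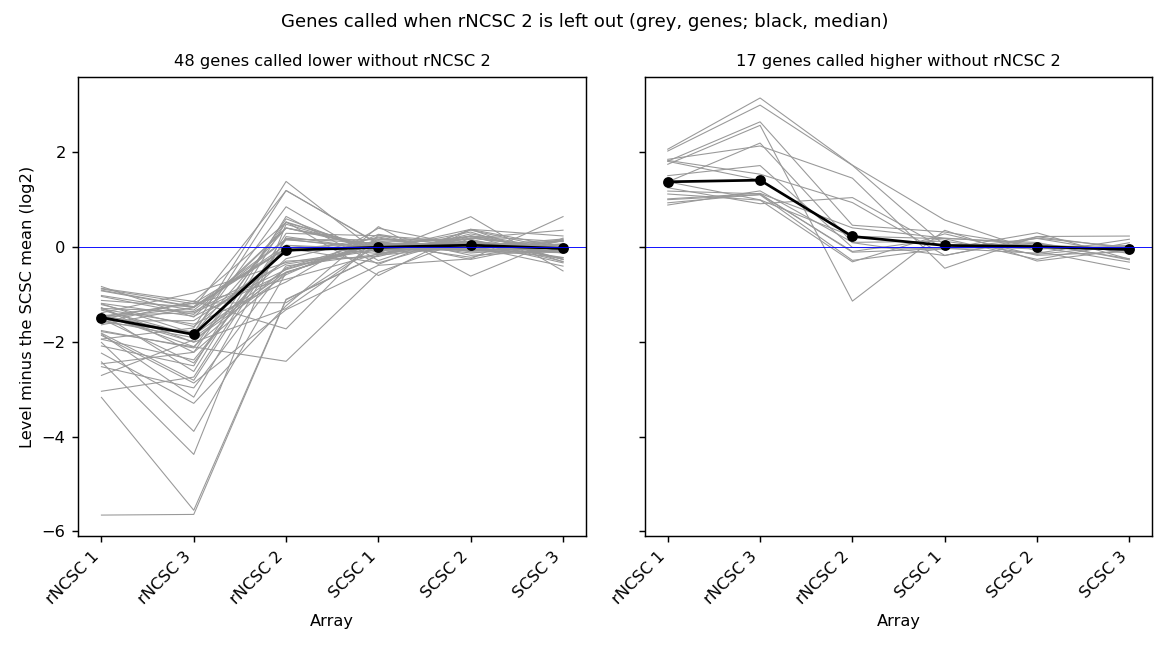
Level minus the SCSC mean (y axis, log2) on each of the 6 arrays (x axis) for the 48 genes called lower (left) and 17 called higher (right) when rNCSC 2 is left out; a grey line joins the values of 1 gene and black points are medians. The genes were chosen by rNCSC 1 and rNCSC 3 against SCSC, so these arrays lie apart from 0, and the nearness of the rNCSC 2 medians to 0 follows in part from that choice.

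Further probe sets of the same genes, a second reading on the same arrays, mostly repeated the large differences. The 37 higher genes with no overlap and a difference of at least 1 had 33 further probe sets past the filter, in 18 genes, and 27 of these did not overlap in the same direction. The 35 lower genes had 19, in 12 genes, and 15 repeated. In these 2 sets 0 probe sets failed to overlap in the opposite direction. For Igf2bp3, 5 further probe sets were all lower without overlap, by 0.53 to 2.03. Over all genes without overlap, these included, 179 of 488 further probe sets on the higher side and 274 of 893 on the lower side did not overlap in the same direction. Efcab7, Bcas1 and Apoe had no further probe set past the filter.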

How the data were processed

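Total RNA was measured on 9 Affymetrix mouse arrays, grouped by their titles. The authors deposited 1 log2 value per probe set, and per the submitters' processing notes the tool was GCRMA (no version given in the sources used here). GCRMA corrects background from probe sequence, makes the arrays' distributions alike and pulls unexpressed transcripts to a common low level, so a change in total RNA would not show. Scanner files were not used here. Precision is limited by having 3 arrays a group.

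Of 45101 probe sets, 34958 had 1 symbol in the platform annotation, 932 had several and 9211 were unlisted. The RefSeq gene table (GRCm38.p6) held the identifiers of 34754 and was used for names and chromosomes. Each gene took its brightest probe set by the mean of 9 arrays, and a gene was tested when it reached 5 on at least 3 arrays. This left 9930 autosomal genes, and 971 of them reached 5 on fewer than 3 of the 6 arrays compared. List counts include such genes. They made up 10 of 36 axon guidance, 7 of 24 immediate early and heat shock, 4 of 21 Hox and 4 of 22 imprinted genes. They also made up 3 of 12 neuronal, 2 of 6 DRG sensory neuron, 3 of 24 amino acid and stress, 3 of 32 cilium and 2 of 22 hypoxia genes. X- and Y-linked genes stayed in the fit and its adjustment and were left out of all counts and names.

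limma 3.58.1 in R 4.3.3 was fitted with group means over the 9 arrays (6 residual and 2.38 prior degrees of freedom), giving two-sided p-values that were adjusted by Benjamini-Hochberg over every gene tested. Calls needed an adjusted p under 0.05 and an absolute difference of at least 1. Arrays do not overlap where all 3 of one group lie above all 3 of the other. The steps were tested on simulated data. The comparison and the 38 gene lists were chosen with earlier results of these data known. Genes named were those called, the 15 of greatest difference each way without overlap (unadjusted p under 0.05, higher mean at least 7), up to 4 members of each list by smallest p under 0.05, fixed markers, and the 10 of largest SD in each group. Other list members were named after their values were seen. The 20 alternatives changed the arrays, filter, scaling, variance model, array weights, probe sets, genes adjusted over and replicate block, or left out 1 array.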

Additional observations from a re-analysis of the deposited data

How the results depend on the processing

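With limma, 0 genes were called higher and 1 lower. The lower count was 0 with the 6 arrays alone in the fit, and 0 with the replicate block. A filter at 7 gave 1 higher and 3 lower, eBayes with a trend 1 and 3, and array weights 8 and 5. Array weights also gave 585 genes higher and 1715 lower at an unadjusted p under 0.05. With every probe set tested on its own, 671 were higher at an unadjusted p under 0.05, 128 were higher by 1 or more, and 979 higher and 2330 lower did not overlap. Genes higher without overlap numbered 921 with no filter and 851 with centred arrays. The replicate block gave 452 higher and 1193 lower at an unadjusted p under 0.05. Deviations of arrays with the same number correlated at 0.01, 0.20 and 0.13 over genes, so the numbers were not taken to pair the arrays.

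When 1 array was left out, genes called numbered 0 to 17 higher and 0 to 48 lower, with both upper ends reached without rNCSC 2. At an unadjusted p under 0.05 they numbered 209 to 595 higher and 559 to 1183 lower, with both lower ends without SCSC 1. Differences of 1 or more numbered 49 to 148 and 38 to 145, from without rNCSC 3 to without rNCSC 2. Genes without overlap numbered 732 to 1299 higher and 1710 to 2533 lower without 1 of the 6 arrays, where fewer arrays can overlap.

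Of 117 named genes, 15 changed sign under at least 1 alternative, and none of these was called in the fit reported. Centred arrays gave 0.0007 for Olig1, 0.0058 for Olig2, 0.0137 for Sox2, 0.0423 for Fabp7, 0.0213 for Eya1 and 0.0015 for Adm. Array weights gave 0.0420 for Sox2, 0.0038 for Fabp7, -0.0001 for Mki67, 0.161 for Vit and 0.981 for Adm. Without 1 array, differences ran from -0.16 to 0.0530 for Olig1, -0.11 to 0.0187 for Sox2, -0.0224 to 0.0165 for Fabp7, -0.0175 to 0.0180 for Mki67, -0.29 to 0.0723 for Pax6, -0.0191 to 0.83 for Tfap2a, -0.24 to 2.92 for Hoxd10, -0.40 to 2.84 for Hoxc10, -1.79 to 1.20 for Eya1, -1.90 to 0.92 for Vit, -1.18 to 1.62 for Adm, -0.36 to 1.24 for Slc2a3, -0.12 to 0.96 for Pfkl and -0.19 to 1.34 for Ndrg1. The cause was not tested. The 95% interval reached 0.32 to either side of the difference in the median gene, which limits what these arrays can show for a typical gene.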
